A study of Rattus norvegicus with 15 samples.

Results

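The serpins described here are 7 genes, Serping1, Serpina3n, Serpine2, Serpini1, Serpinb9, Serpinf1 and Serpinh1, taken as a family and found on the array by gene symbol. All 7 had at least 1 probe set annotated to that gene alone, 10 probe sets in all, among 10411 genes named on the array. A further 22 genes with serpin symbols or serpin-related products, Agt among them, served as the rest of the family. RNA of the posterior cerebral artery on the operated side was measured on 15 Affymetrix Rat230A arrays, 3 in each of 5 groups, with the arteries of 8 rats pooled for each array. The animals were Sprague Dawley rats of 7 weeks. In 3-vessel occlusion (3VO) both vertebral arteries were coagulated and the left common carotid artery was tied, and arteries were taken at 24 h or at 3 d. Sham rats had the same anaesthesia with the vessels exposed and not closed, at 24 h or 3 d, and intact rats had no operation. All 5 groups shared the perfusion with latex under papaverine, so intact arteries were also filled and dilated. The series' design text speaks of pooled RNAs hybridised repeatedly. It is thus not clear whether the 3 arrays of a group are separate pools of rats or repeats on the same RNA. The p-values measure only the spread between these arrays.

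Serpins are mostly inhibitors of serine proteases. A protease cuts the exposed reactive loop of the serpin, the serpin refolds with the protease still bound, and both are lost and cleared by receptors of the LDL receptor family. Some members no longer inhibit proteases and act as chaperones or secreted factors. In an artery the family is best known for holding complement, kallikrein, thrombin and plasminogen activators in check, and the chaperone Serpinh1 serves collagen folding in the cells that build the wall.

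The promoters of 3 members are shown because each holds an element that names a pathway the gene is known to answer to. They are RefSeq sequences of build GRCr8, from 250 bases before to 50 bases after the gene's start, read 5′ to 3′ on the gene's strand, with the matched element in capitals. Of the 7 members 6 were matched in the promoter table, and Serping1 was not. Serpina3n is at chr6:129088142-129088441 on the plus strand, Serpinh1 at chr1:163062927-163063226 on the minus strand and Serpinb9 at chr17:31640767-31641066 on the minus strand.
Serpina3n: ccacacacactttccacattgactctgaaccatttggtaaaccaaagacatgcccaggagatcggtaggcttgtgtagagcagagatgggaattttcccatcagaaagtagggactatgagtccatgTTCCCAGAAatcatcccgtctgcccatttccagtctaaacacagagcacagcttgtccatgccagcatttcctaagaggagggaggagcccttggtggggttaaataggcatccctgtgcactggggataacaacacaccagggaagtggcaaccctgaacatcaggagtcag
Serpinh1: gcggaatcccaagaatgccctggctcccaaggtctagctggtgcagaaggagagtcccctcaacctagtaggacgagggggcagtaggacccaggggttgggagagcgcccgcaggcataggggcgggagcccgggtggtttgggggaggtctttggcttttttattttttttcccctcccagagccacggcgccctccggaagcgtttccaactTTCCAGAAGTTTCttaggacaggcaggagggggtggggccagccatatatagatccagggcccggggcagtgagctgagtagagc
Serpinb9: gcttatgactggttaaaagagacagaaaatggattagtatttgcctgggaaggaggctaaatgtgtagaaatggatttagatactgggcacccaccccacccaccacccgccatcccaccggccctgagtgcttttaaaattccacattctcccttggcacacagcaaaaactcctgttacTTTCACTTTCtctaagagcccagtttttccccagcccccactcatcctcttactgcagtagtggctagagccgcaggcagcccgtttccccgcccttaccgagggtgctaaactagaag
The capitals in Serpina3n match the STAT element TTCNNNGAA, 123 bases before the start, a pattern present on either strand in 8.87% of 33469 promoters of this length. In Serpinh1 they match a heat shock element on the other strand, 35 bases before the start, which 0.798% of promoters hold. In Serpinb9 they match an interferon regulatory factor element on the other strand, 69 bases before the start, found in 3.92% of promoters. These motifs do not overlap one another in the 3 windows. The Serpine2 window held 6 copies of the GC box GGGCGG, which 33.1% of promoters hold at least once, at a GC content of 77% against a median of 51.7%. These are matches of letters, and binding was not measured.

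Signals are linear array intensities in arbitrary units, scaled by the authors to the same mean on every array, and are compared only within a probe set. Differences are given as log2 of (signal + 16), 3VO minus sham, operated minus intact or 3 d minus 24 h, with the standard error (SE) of limma. A probe set passed when its p, adjusted after Benjamini and Hochberg over the 15737 probe sets tested, was under 0.05. Array medians ran from 2559.4 to 2940.9, and 1.33% to 5.19% of values lay below 100. No measured marker of smooth muscle, endothelium, fibroblasts, neurons, astrocytes, oligodendrocytes or macrophages lay under 100 on all arrays of a group. Markers of brain cells thus gave signal beside those of the vessel wall. Few values of any kind lay below 100, so this limit does not by itself show that a cell type was present. On several marker lists intact replicate 3 stood apart from the other intact arrays. Its neuron markers summed to 228105, against 549598 and 424133 on intact replicates 1 and 2, and its macrophage markers to 364057, against 229873 and 205299. Its endothelial markers summed to 186999, against 103718 and 115972. The fibroblast and leptomeningeal sum was 1081010, against 757835 and 782533, and the erythroid sum 350034, against 256194 and 229233. On 8 choroid plexus markers intact replicate 1 was the odd array, at 33868 against 414348 and 214198 on replicates 2 and 3. That sum went as low as 21611 on the 3VO arrays at 24 h. The lowest Pearson r of intact replicate 3 with any other array was 0.917, against 0.891 and 0.897 for replicates 1 and 2. Differences from intact arteries are therefore given with it and, for the members and the gene lists whose calls it touched, without it. The text attached to 1 sham array at 3 d, replicate 1, describes the occlusion, and leaving that array out gave no serpin a call.

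None of the 10 serpin probe sets passed in 3VO against sham at 24 h, where 0.0508% of all probe sets tested passed, or at 3 d, where 0% passed. The difference between the 3VO effects at the 2 times also passed for 0 of 10, with a background of 0%. At 24 h the groups did not overlap for 2 serpin probe sets that were higher (background 6.42%) and 2 that were lower (background 9%). These were both probe sets of Serpini1 and both of Serpinb9. At 3 d 2 probe sets were higher without overlap (background 4.34%), those of Serping1 and the dim one of Serpinh1, and 0 were lower (background 4.75%). At an unadjusted p under 0.05 there were 3 serpin probe sets at 24 h (background 6.97%), 2 at 3 d (4.73%) and 2 for the difference between times (2.78%). The median log2 difference over the main probe sets of the 7 genes was -0.10 at 24 h and -0.04 at 3 d, against -0.02 and -0.01 over all probe sets tested.

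**Figure D1:**
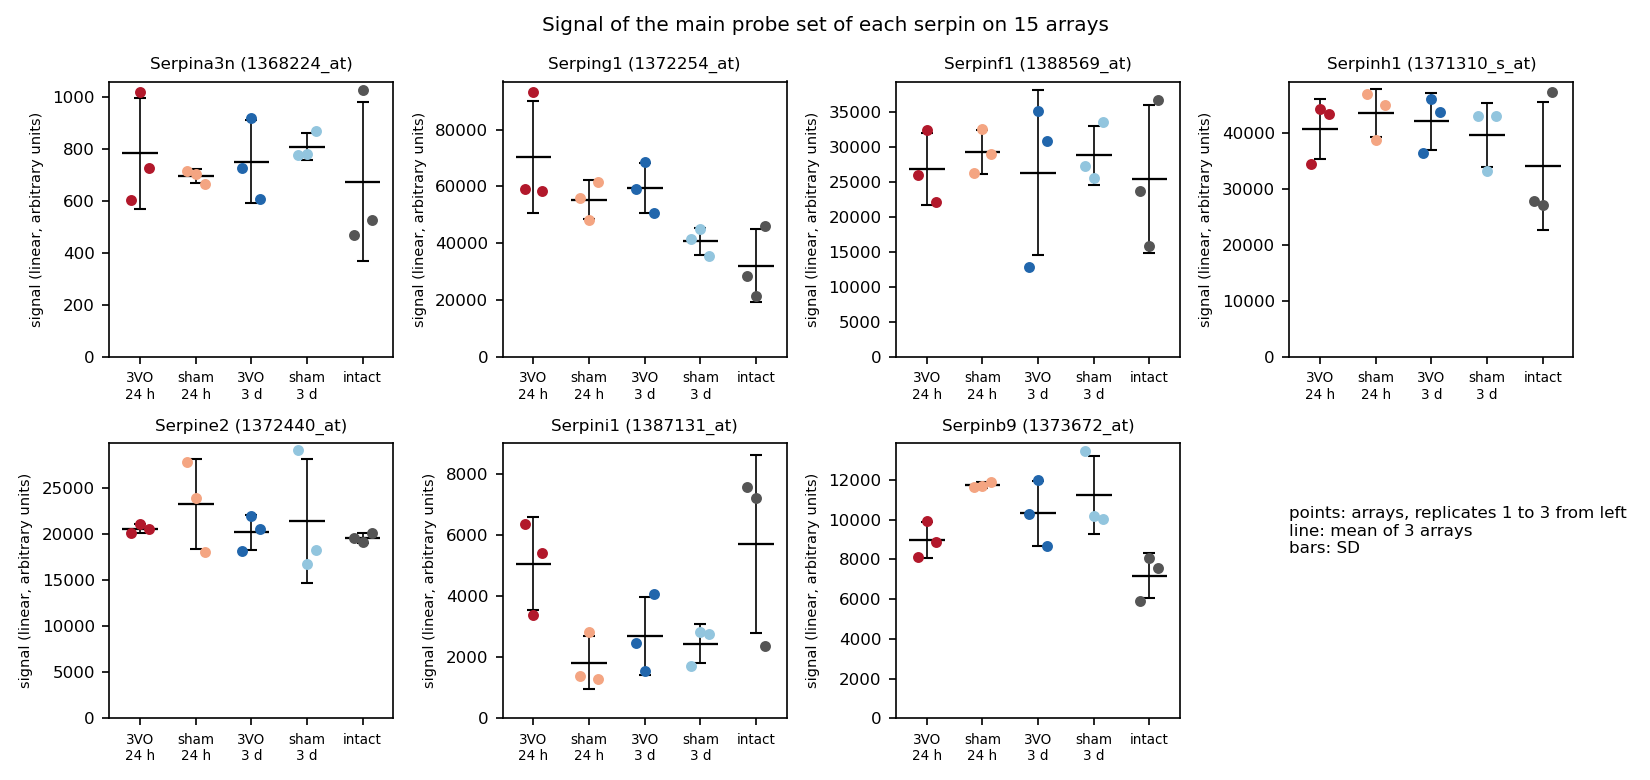
Linear signal (arbitrary units, each axis from 0) of the main probe set of the 7 serpins on all 15 arrays, in the order 3VO and sham at 24 h, 3VO and sham at 3 d, and intact, with points for arrays 1 to 3 from the left, a line at the mean and bars for the SD. Serping1 is lowest in the intact group and highest at 24 h after 3VO, Serpini1 is high on 2 intact arrays and after 3VO at 24 h, and Serpine2 has nearly level means.

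Serping1 encodes the C1 inhibitor, which blocks the complement proteases C1r and C1s and plasma kallikrein. Its signal was 59229, 93240.2 and 58516 at 24 h after 3VO, against 56021, 48289 and 61722 after sham. The sham arrays overlapped the lower 3VO arrays, and 1 3VO array lay far above the rest (log2 0.32, SE 0.25, adjusted p = 0.858). At 3 d it was 59135, 68566 and 50676 after 3VO, against 41554, 44992 and 35332 after sham. Every 3VO array was above every sham array at 3 d, by 1.46-fold on average, without passing (log2 0.55, SE 0.25, 95% interval 0.02 to 1.07, adjusted p = 0.999). Intact arteries gave 28529, 21310 and 46224, the order of means being 3VO at 24 h, 3VO at 3 d, sham at 24 h, sham at 3 d and intact. Of the neighbours in that order only sham at 24 h (55344 ± 6742, mean ± SD, n = 3) and sham at 3 d (40626 ± 4896) differed by more than the sum of their SDs.

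Against intact arteries Serping1 had the smallest adjusted p of the members in 3VO at 24 h, at log2 1.17 (SE 0.25, 2.26-fold, adjusted p = 0.100) with no overlap. The difference was 0.96 in 3VO at 3 d (1.94-fold, adjusted p = 0.133) and 0.86 in sham at 24 h (adjusted p = 0.157), both without overlap, and 0.41 in sham at 3 d (adjusted p = 0.462). Without intact replicate 3 it passed in 3 of the 4 comparisons. The limma values were then log2 1.48 in 3VO at 24 h (adjusted p = 0.00516), 1.26 in 3VO at 3 d (adjusted p = 0.0158) and 1.16 in sham at 24 h (adjusted p = 0.0187), while sham at 3 d gave 0.71 (adjusted p = 0.0968). In bulk RNA such as this, fewer cells of a type and less RNA per cell cannot be told apart.

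The macrophage markers moved with Serping1. All 17 of 17 measured were higher in 3VO at 24 h than in intact arteries, of which 4 passed, and 17 of 17 were higher in 3VO at 3 d, of which 2 passed. Their summed signal ran from 380878 to 571627 in 3VO at 24 h, 334389 to 436658 in 3VO at 3 d, 303196 to 413910 in sham at 24 h, 276967 to 302391 in sham at 3 d and 205299 to 364057 in intact arteries. None of the 17 was under 100 on all arrays of a group. The array with the highest macrophage sum, 3VO at 24 h replicate 2, also had the highest Serping1 signal, and intact replicate 2 had the lowest of both. The markers that passed without intact replicate 3 numbered 11 of 17 in 3VO at 24 h, 9 in 3VO at 3 d, 6 in sham at 24 h and 1 in sham at 3 d. Of the macrophage markers 15 of 17 were higher in 3VO than in sham at 24 h (median 0.22). At 3 d 17 of 17 were (median 0.28), and none passed at either time. Other genes were also higher in 3VO at 24 h than in intact arteries. These were 11 of 12 endothelial and 8 of 12 fibroblast and leptomeningeal markers and 21 of 24 collagen and collagen-folding genes. Only 3 of 11 smooth muscle and 4 of 22 neuron markers were. The part of any of these genes in the Serping1 differences was not tested.

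**Figure D2:**
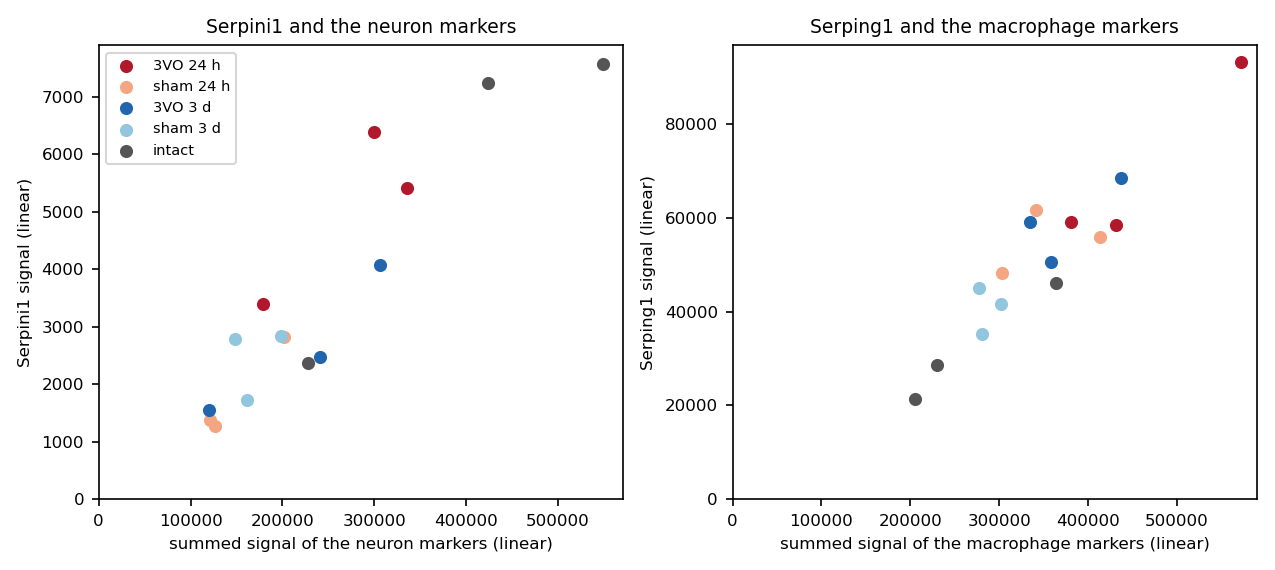
Left, the Serpini1 signal of probe set 1387131_at against the summed signal of 22 neuron markers, and right, the Serping1 signal against the summed signal of 17 macrophage markers, each point 1 of 15 arrays coloured by group, with linear axes from 0 in arbitrary units. In both panels the points run upwards together, and intact replicate 3 lies with the operated arrays.

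Serpini1 encodes neuroserpin, an inhibitor of tissue plasminogen activator that neurons secrete. Probe set 1387131_at gave 6379.7, 3401 and 5418 at 24 h after 3VO, against 1385, 2817 and 1275 after sham, a 2.85-fold difference with no overlap (log2 1.51, SE 0.46, adjusted p = 0.497). Probe set 1368256_at gave 6907, 2788 and 4621 after 3VO, against 879.8, 1559 and 1084 after sham, a 3.87-fold difference with no overlap (log2 1.95, SE 0.51, adjusted p = 0.336). Both probe sets showed the same direction on all 3 3VO arrays against all 3 sham arrays, and neither passed. At 3 d the groups overlapped, with 2479.5, 1545 and 4066 after 3VO, against 1729.6, 2846 and 2778 after sham for 1387131_at (log2 0.06, adjusted p = 0.999). Probe set 1368256_at gave 2032, 1219.7 and 3267 at 3 d after 3VO, against 728, 1861 and 1489 after sham (log2 0.66, adjusted p = 0.999). The 3VO effect at 3 d minus that at 24 h was -1.45 and -1.29 for the 2 probe sets (adjusted p = 0.999 for both), so the effects were not shown to differ between the times.

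In intact arteries Serpini1 spread widely, with 7578, 7239 and 2362 for 1387131_at and 9695, 9546 and 2829 for 1368256_at. Replicate 3 was the low one for both, and the mean of the group was the highest of the 5. The order of means was intact, 3VO at 24 h, 3VO at 3 d, sham at 3 d and sham at 24 h, and no neighbours differed by more than the sum of their SDs. Sham at 24 h was at log2 -1.56 (adjusted p = 0.162) and -2.47 (adjusted p = 0.116) against intact arteries, the second without overlap. Sham at 3 d was at -1.08 (adjusted p = 0.317) and -2.32 (adjusted p = 0.136), again without overlap for 1368256_at. The 3VO group was at -0.05 and -0.52 at 24 h, and at -1.01 (adjusted p = 0.372) and -1.66 (adjusted p = 0.197) at 3 d.

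Leaving out intact replicate 3 took Serpini1 past the threshold in 3 comparisons. In sham at 24 h the limma values became log2 -2.11 (adjusted p = 0.0202) and -3.06 (adjusted p = 0.0120). For 1368256_at alone, sham at 3 d gave -2.91 (adjusted p = 0.0348) and 3VO at 3 d gave -2.25 (adjusted p = 0.0337). In 3VO at 24 h the values were then -0.59 and -1.10, neither of which passed.

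The neuron markers moved with Serpini1. All 22 of 22 measured were higher in 3VO than in sham at 24 h, at a median of log2 0.87, and all 22 were lower in sham at 24 h than in intact arteries, with a median of -1.11, although none passed. When intact replicate 3 was left out, 9 of 22 passed in sham at 24 h and 4 in sham at 3 d, all lower, and 0 after 3VO at either time. Their summed signal ran from 178818 to 335741 in 3VO at 24 h, 120261 to 305883 in 3VO at 3 d, 120768 to 201769 in sham at 24 h, 148536 to 198081 in sham at 3 d and 228105 to 549598 in intact arteries, and none of the 22 was under 100 on all arrays of a group. With the mean of these markers as a covariate the Serpini1 difference of 3VO against sham at 24 h was log2 0.55 and 0.95 for the 2 probe sets. With the same covariate sham at 24 h against intact was -0.15 and -1.01, and sham at 3 d against intact was 0.08 and -1.13. Other brain markers also shifted, none passing. In 3VO against sham at 24 h 9 of 12 astrocyte (median 0.46) and 5 of 6 oligodendrocyte markers (median 0.21) were higher. In sham at 24 h against intact 9 of 12 (median -0.62) and 5 of 6 (median -0.28) were lower. In sham at 3 d 9 of 12 astrocyte markers were lower and 6 of 6 oligodendrocyte markers higher. Their part in the Serpini1 differences was not tested.

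**Figure D3:**
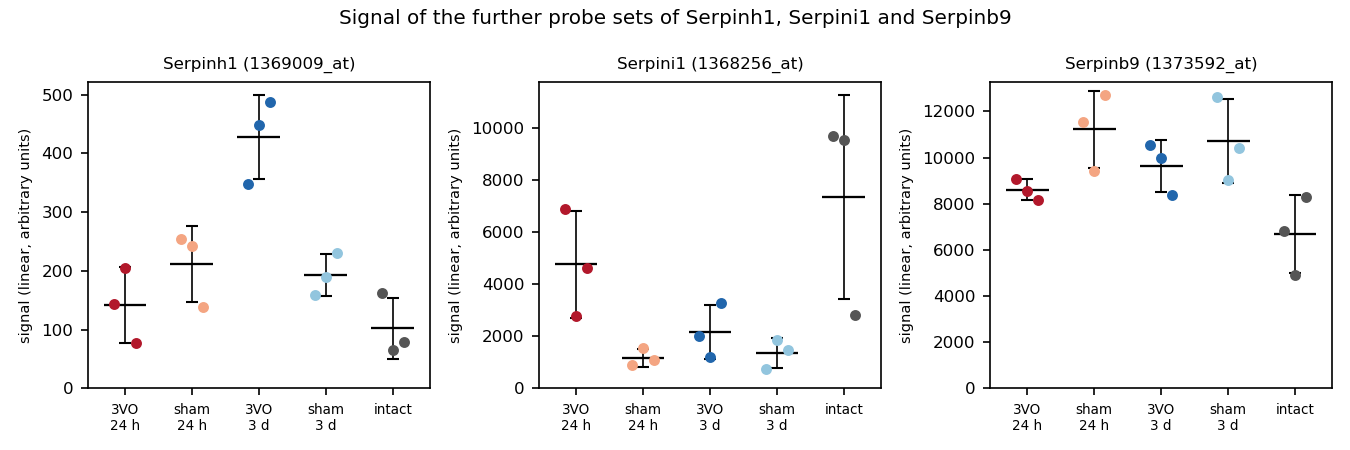
Linear signal (arbitrary units, each axis from 0) of the further probe sets of Serpinh1, Serpini1 and Serpinb9 on all 15 arrays, with points for arrays 1 to 3 from the left, a line at the mean and bars for the SD. The dim Serpinh1 probe set is highest in 3VO at 3 d, the Serpini1 probe set on 2 intact arrays and after 3VO at 24 h, and the Serpinb9 probe set is lowest in intact arteries.

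Serpinb9 stays inside cells, where it blocks granzyme B, the protease of cytotoxic granules. Probe set 1373672_at gave 8122, 9959.9 and 8880.1 at 24 h after 3VO, against 11636, 11699 and 11902 after sham. The second, 1373592_at, gave 9074, 8562 and 8159 after 3VO, against 11545, 9396 and 12706 after sham. Both were lower after 3VO on every array than on any sham array, at log2 -0.39 (SE 0.16, adjusted p = 0.660) and -0.37 (SE 0.18, adjusted p = 0.740), and neither passed. At 3 d the groups overlapped, at 10302, 11979.5 and 8687 after 3VO, against 13487, 10179 and 10029 after sham for 1373672_at (log2 -0.12, 95% interval -0.46 to 0.22, adjusted p = 0.999). For 1373592_at at 3 d the signals were 10549, 9969 and 8362 after 3VO, against 12639, 9036 and 10429 after sham (log2 -0.15, adjusted p = 0.999). The order of means was the same for both probe sets, sham at 24 h, sham at 3 d, 3VO at 3 d, 3VO at 24 h and intact, with no neighbours further apart than the sum of their SDs.

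All sham arrays lay above all intact arrays for both Serpinb9 probe sets. The intact signals were 5916, 8080.5 and 7554 for 1373672_at and 6829.6, 4926 and 8294 for 1373592_at. Sham at 24 h was at log2 0.72 and 0.77 against intact (adjusted p = 0.135 for both), and sham at 3 d at 0.64 (adjusted p = 0.145) and 0.70 (adjusted p = 0.168). In 3VO at 3 d the differences were 0.52 (adjusted p = 0.194) and 0.55 (adjusted p = 0.237), without overlap. In 3VO at 24 h they were 0.33 (adjusted p = 0.506), without overlap, and 0.39 (adjusted p = 0.500), with overlap. Without intact replicate 3, limma called both probe sets in sham at 24 h, at 0.76 (adjusted p = 0.0314) and 0.94 (adjusted p = 0.0202), and 1373592_at in sham at 3 d, at 0.87 (adjusted p = 0.0474). With the neuron covariate sham at 24 h against intact was 0.46 and 0.44, and 3VO against sham at 24 h was -0.21 and -0.15. Markers of several cell types of the vessel wall and of red blood cells moved with the sham groups. For smooth muscle 11 of 11 were higher in sham at 24 h than in intact arteries and 11 of 11 were lower in 3VO than in sham at 24 h, with medians of 0.43 and -0.65 and none passing. Their summed signal ran from 333023 to 474893 in 3VO at 24 h, 322513 to 478919 in 3VO at 3 d, 539227 to 664986 in sham at 24 h, 393767 to 628018 in sham at 3 d and 320603 to 558354 in intact arteries. Of the endothelial markers 11 of 12 were lower in 3VO than in sham at 24 h (median -0.27) and 12 of 12 higher in sham at 24 h than in intact arteries (median 0.57). For fibroblast and leptomeningeal markers these counts were 11 of 12 (median -0.23) and 11 of 12 (median 0.62). For erythroid markers they were 5 of 5 (median -0.40) and 5 of 5 (median 0.58). None of these markers passed with every array kept. The fit without intact replicate 3 called markers of each of these lists in sham at 24 h against intact, all higher. These were 1 of 11 smooth muscle, 4 of 12 endothelial, 5 of 12 fibroblast and leptomeningeal and 2 of 5 erythroid markers. In sham at 3 d against intact that fit called 0 of each list. Lists of other blood and immune cells went differently in 3VO against sham at 24 h. There 15 of 17 macrophage, 2 of 4 neutrophil and 4 of 10 T and NK cell markers were higher. In sham at 24 h against intact 17 of 17, 4 of 4 and 6 of 10 were higher. The part of any of these markers in the Serpinb9 differences was not tested.

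Serpina3n belongs to the antichymotrypsin group, which in mouse is a secreted acute phase protein and a marker of reactive astrocytes. Its single probe set was dim, at 467 to 1026 over the 15 arrays. It gave 604, 1019 and 725 at 24 h after 3VO, against 715, 705 and 663 after sham, and the sham arrays lay inside the spread of the 3VO arrays (log2 0.14, 95% interval -0.62 to 0.89, adjusted p = 0.973). At 3 d it gave 727, 919.8 and 606 after 3VO, against 776, 779 and 867 after sham, again with overlap (log2 -0.12, 95% interval -0.88 to 0.64, adjusted p = 0.999). Intact arteries gave 467, 1026 and 528, which include both the lowest and the highest of the 15 arrays. Against them the log2 difference was 0.27 in 3VO at 24 h, 0.22 in 3VO at 3 d, 0.13 in sham at 24 h and 0.34 in sham at 3 d, and none passed. With intact replicate 3 left out these were 0.14, 0.09, 0.0011 and 0.21 in the same order, and none passed either.

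Serpine2, or protease nexin-1, inhibits thrombin, urokinase and plasmin at the surface of smooth muscle and other cells. Its signal was 20179.9, 21116 and 20552 at 24 h after 3VO, against 27806, 23917 and 18068 after sham (log2 -0.15, 95% interval -0.55 to 0.24, adjusted p = 0.922). At 3 d it was 18156, 21921 and 20536 after 3VO, against 29179, 16789.9 and 18299.5 after sham (log2 -0.04, 95% interval -0.44 to 0.35, adjusted p = 0.999). Intact arteries gave 19554, 19114 and 20182. The sham groups were spread widely and enclosed the other groups, whose arrays lay close together, and no neighbours in the order of means were further apart than the sum of their SDs. Against intact arteries the log2 differences were 0.07 in 3VO at 24 h, 0.04 in 3VO at 3 d, 0.22 in sham at 24 h and 0.08 in sham at 3 d. They were 0.09, 0.06, 0.24 and 0.10 without intact replicate 3, and none passed in either fit.

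Serpinf1, also called pigment epithelium-derived factor, does not inhibit proteases and is known as a secreted factor that restrains vessel growth. Its signal was 26088, 32425 and 22168 at 24 h after 3VO, against 26268, 32604 and 29063 after sham (log2 -0.14, 95% interval -0.84 to 0.57, adjusted p = 0.970). At 3 d it was 12922, 35237 and 30854 after 3VO, against 27268, 25627 and 33602 after sham, and 1 low 3VO array set the wide spread there (log2 -0.25, 95% interval -0.95 to 0.46, adjusted p = 0.999). Without that array, 3VO at 3 d replicate 1, the difference at 3 d was 0.20. Intact arteries gave 23801, 15801 and 36843, with replicate 3 the highest of all 15 arrays. All 5 groups overlapped, and no difference of an operated group from intact arteries exceeded log2 0.28. The log2 differences without intact replicate 3 were 0.45 in 3VO at 24 h, 0.32 in 3VO at 3 d, 0.59 in sham at 24 h and 0.56 in sham at 3 d, and none passed.

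Serpinh1 encodes Hsp47, the chaperone of the endoplasmic reticulum that binds procollagen as its triple helix forms. The main probe set, 1371310_s_at, gave 34503, 44308 and 43294 at 24 h after 3VO, against 46985, 38651 and 45032 after sham (log2 -0.10, 95% interval -0.52 to 0.32, adjusted p = 0.957). At 3 d it gave 36416, 46132 and 43708 after 3VO, against 42981, 33116 and 42965 after sham (log2 0.09, 95% interval -0.33 to 0.51, adjusted p = 0.999). Intact arteries gave 27788, 27107 and 47362, with replicates 1 and 2 below every operated array and replicate 3 above them all. Against intact arteries the log2 differences were 0.30 in 3VO at 24 h, 0.35 in 3VO at 3 d, 0.40 in sham at 24 h and 0.26 in sham at 3 d. Without intact replicate 3 they were 0.56, 0.61, 0.66 and 0.52, and limma called sham at 24 h (adjusted p = 0.0353) and no other.

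A second Serpinh1 probe set, 1369009_at, was near the floor of the array and showed another pattern. It gave 348, 449 and 487 at 3 d after 3VO, against 159, 189 and 231 after sham, with no overlap (log2 1.09, SE 0.49, adjusted p = 0.999). At 24 h it gave 143, 205 and 77 after 3VO, against 255, 242 and 138 after sham (log2 -0.57, adjusted p = 0.875), and intact arteries gave 162, 66 and 79. Against intact arteries 3VO at 3 d was at log2 1.98 (SE 0.49, adjusted p = 0.122) with no overlap, and it was 1.86 (adjusted p = 0.104) without intact replicate 3. Of its 15 values 3 fell below 100. Across the 15 arrays the Serpinh1 probe sets had a Pearson r of 0.29 with each other, those of Serpini1 0.95 and those of Serpinb9 0.75, as a description of arrays that share the group structure.

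**Figure D4:**
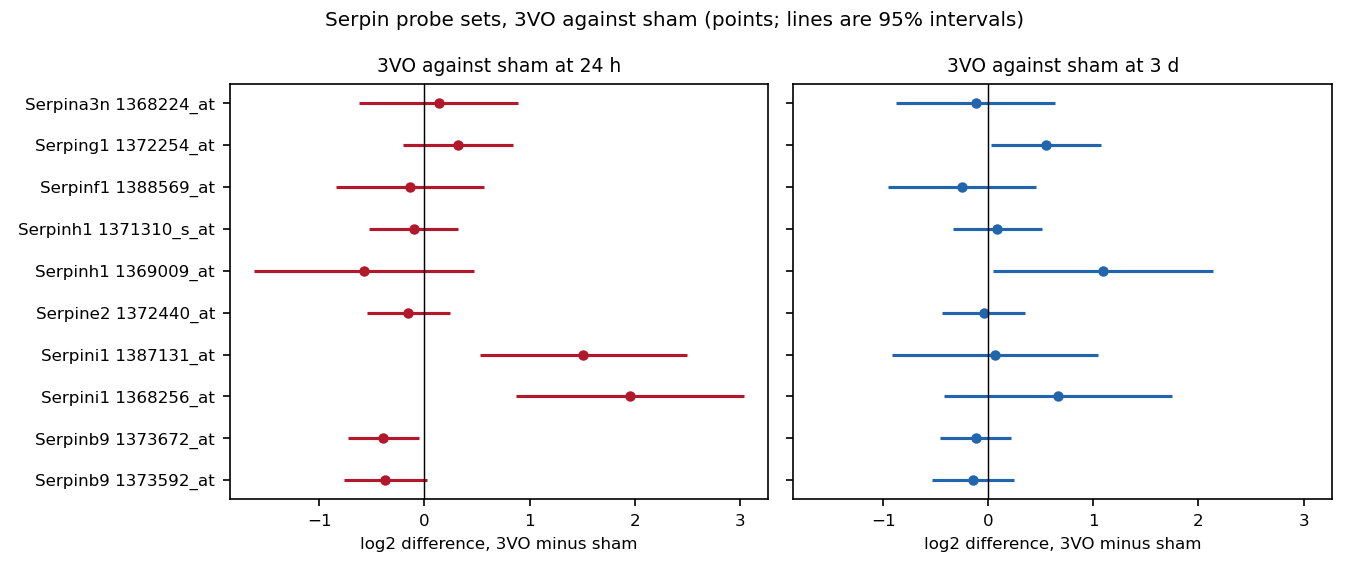
Log2 difference, 3VO minus sham, of the 10 serpin probe sets at 24 h (left) and at 3 d (right), with 95% intervals from limma as lines. At 24 h the Serpini1 intervals lie right of 0 and the interval of Serpinb9 1373672_at left of 0, at 3 d those of Serping1 and the dim Serpinh1 probe set lie right of 0, and none passed after adjustment.

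Against intact arteries 0 of 10 serpin probe sets passed in each of the 4 operated groups, with backgrounds of 0.184% in 3VO at 24 h, 0.222% in 3VO at 3 d, and 0% in sham at 24 h and at 3 d. At an unadjusted p under 0.05 the members numbered 1 of 10 in 3VO at 24 h (background 9.96%), 6 in 3VO at 3 d (12.9%), 5 in sham at 24 h (15%) and 4 in sham at 3 d (14.2%). Groups did not overlap, with the operated group higher, for 2 probe sets in 3VO at 24 h (7.59%), 4 in 3VO at 3 d (10.3%), 3 in sham at 24 h (9.96%) and 2 in sham at 3 d (9.86%). They did not overlap, with the operated group lower, for 1 probe set in sham at 24 h (7.41%) and 1 in sham at 3 d (5.34%), both 1368256_at of Serpini1, and for 0 in 3VO at 24 h (6.19%) and 3 d (5.11%). Of the 7 main probe sets 6 were higher and 1, that of Serpini1, was lower in each of the 4 comparisons. Their median log2 difference was 0.27 in 3VO at 24 h, 0.22 in 3VO at 3 d, 0.28 in sham at 24 h and 0.26 in sham at 3 d, against 0.00, 0.07, 0.04 and 0.08 over all probe sets tested. Without intact replicate 3 it was 0.37, 0.32, 0.59 and 0.52, against -0.02, 0.06, 0.03 and 0.08. These 4 comparisons share the intact arrays. Without intact replicate 3 the members that passed numbered 1, 2, 6 and 2 in the same order, while the calls over all probe sets numbered 227, 258, 818 and 184.

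**Figure D5:**
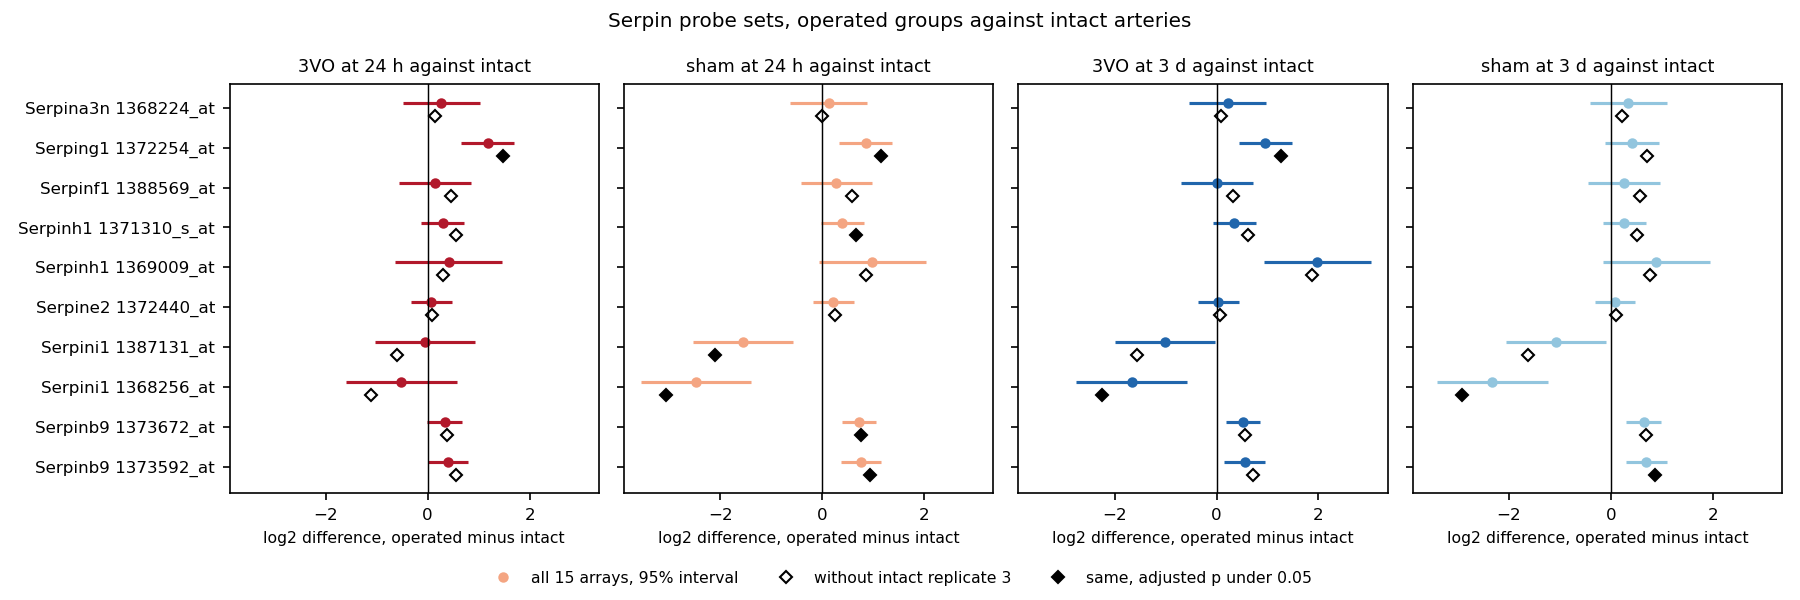
Log2 difference of the 4 operated groups from intact arteries for the 10 serpin probe sets, as coloured points with 95% intervals from all 15 arrays and as diamonds without intact replicate 3, filled where the adjusted p was under 0.05. No point from all 15 arrays passed, and the filled diamonds belong to Serping1, the main probe set of Serpinh1, Serpini1 and Serpinb9.

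Between the 2 times 0 of 10 probe sets passed after 3VO or after sham, and 0% of all probe sets did. At an unadjusted p under 0.05 there were 2 serpin probe sets after 3VO (background 5.76%) and 0 after sham (5.65%). After 3VO the groups at 3 d and 24 h did not overlap for 1 probe set that was higher at 3 d (background 9.34%), the dim Serpinh1 set at log2 1.57 (adjusted p = 0.725), and for 0 that were lower (4.68%). The main Serpinh1 probe set differed by 0.05, Serpini1 by -0.97 and -1.15, Serping1 by -0.22, and Serpinb9 by 0.19 and 0.16. After sham 1 probe set was higher at 3 d without overlap (background 6.73%), that of Serpina3n, and 1 was lower (background 4.55%), that of Serping1 at log2 -0.45 (adjusted p = 0.878). The macrophage markers were lower at 3 d than at 24 h after sham in 17 of 17 cases, and their part in the Serping1 difference was not tested.

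The proteases that serpins trap were represented by 11 of 16 listed genes, 10 of them tested. With all 15 arrays only C1s, the complement protease bound by the Serping1 product, passed. It averaged 22950 ± 3463 in 3VO at 24 h and 9987 ± 2847 in intact arteries (SD, n = 3 each; log2 1.23, adjusted p = 0.0212), and 21285 ± 3541 in 3VO at 3 d (log2 1.12, adjusted p = 0.0356). The call at 24 h was lost on leaving out any 1 of the 3VO arrays at 24 h or intact replicate 1 or 2, where limma's adjusted p ran from 0.0530 to 0.141. The call at 3 d was lost in 10 of 15 such fits, with log2 0.89 to 1.31 over all 15, and both calls were lost with median centring, without the variance trend, in a fit of only those 2 groups and with the array number as a covariate, where the log2 differences were 1.07 to 1.23. That at 3 d was lost with the neuron covariate as well, at log2 0.91 (limma's adjusted p = 0.155). In the fit without intact replicate 3 limma also called C1r in 3VO at 24 h, at log2 1.40 (adjusted p = 0.0283), and at 3 d, at 1.29 (adjusted p = 0.0350). Masp1 in 3VO at 3 d (log2 1.19, adjusted p = 0.0431) and the tissue plasminogen activator Plat in sham at 24 h (log2 0.92, adjusted p = 0.0447) were called as well. Against sham C1s was at log2 0.79 both at 24 h (adjusted p = 0.312) and at 3 d (adjusted p = 0.703). Its partner C1r was at 0.63 at 24 h (adjusted p = 0.697) and 0.61 at 3 d, and Masp1, a protease of the lectin pathway, was at 0.27 and 0.53. Of the 10 proteases 7 were higher and 3 lower at 24 h, and 6 were higher and 4 lower at 3 d, with medians of 0.25 and 0.10. Against intact arteries 8 of 10 were higher in 3VO at 24 h and 9 in 3VO at 3 d (medians 0.72 and 0.73). In sham 8 were higher than intact at 24 h and 10 at 3 d (medians 0.40 and 0.44).

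Receptors listed for serpin clearance or as serpin cofactors were measured for 8 of 9 genes. Of these 0 passed in any comparison, nor against intact arteries without intact replicate 3. At 24 h 3VO minus sham was log2 1.21 for the urokinase receptor Plaur, 0.64 for the scavenger receptor Lrp2 and -0.28 for Lrp6. At 3 d Plaur was at 1.49, the thrombin receptor F2r at 0.60 and the lipoprotein receptor Vldlr at 0.24. The Plaur probe set was dim and spread widely (SE 0.88 at both times, limma's adjusted p = 0.845 and 0.999). At 3 d it averaged 1014 ± 1200 after 3VO and 232 ± 117 after sham (SD, n = 3 each). The clients and co-workers of Serpinh1, 24 collagen and collagen-folding genes, also gave 0 calls with all 15 arrays. In 3VO against sham 8 of 24 were higher and 16 lower at 24 h (median -0.08), and 16 were higher and 8 lower at 3 d (median 0.07). Against intact arteries 21, 23, 21 and 22 of 24 were higher in 3VO at 24 h, 3VO at 3 d, sham at 24 h and sham at 3 d, with medians of 0.26, 0.42, 0.39 and 0.36. Leaving out intact replicate 3, limma called 3, 6, 8 and 2 of them in the same order, all higher, with medians of 0.35, 0.52, 0.58 and 0.54. Col3a1 passed in all 4, at log2 0.90 in 3VO at 24 h (adjusted p = 0.0133), and was named, like the others here, after the values were seen. Col6a1 and Col6a2 were the other two in 3VO at 24 h and Col1a1 the other one in sham at 3 d. Fibroblast and leptomeningeal markers moved with the collagens. Of 12 measured, 8, 9, 11 and 11 were higher than in intact arteries in that order, with medians of 0.33, 0.39, 0.62 and 0.46 and none passing, and 10, 11, 12 and 12 without intact replicate 3, of which 2, 4, 5 and 0 passed. Their summed signal ran from 903631 to 1016046 in 3VO at 24 h, 890826 to 1126446 in 3VO at 3 d, 1063466 to 1232529 in sham at 24 h, 932417 to 1310806 in sham at 3 d and 757835 to 1081010 in intact arteries, and none was under 100 on all arrays of a group. The part of these markers in the collagen and Serpinh1 differences was not tested. In 3VO against sham at 24 h the smallest p-values of the 24 were those of Col5a1 at log2 -0.62, Col1a1 at -0.52 and the chaperone Hsp90b1 at 0.39.

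The rest of the family, 22 genes of which 20 were tested, gave 0 calls in the 9 comparisons with all 15 arrays. When intact replicate 3 was left out, limma called Serpinb9b in 3VO at 24 h against intact, at log2 -2.39 (adjusted p = 0.0283), and Serpind1 and Serpinb6a in sham at 24 h, at 0.86 (adjusted p = 0.0370) and 0.58 (adjusted p = 0.0430). In 3VO against sham 7 were higher and 13 lower at 24 h (median log2 -0.19), and 9 were higher and 11 lower at 3 d (median -0.06). Serpind1, the heparin cofactor that inhibits thrombin, had the smallest p at 24 h, at 2083 ± 115 after 3VO and 3394 ± 161 after sham (SD, n = 3 each; log2 -0.70, adjusted p = 0.374). Serpinb7 was at log2 -2.39 (adjusted p = 0.581) on a probe set that ranged from 28 to 955, and Agt, the non-inhibitory serpin angiotensinogen, was at 0.88 (adjusted p = 0.762). At 3 d Serpinb3 was at -0.76, Serpina1, the elastase inhibitor alpha-1-antitrypsin, at -0.56 and Serpinb9b at 0.92 (adjusted p = 0.999 for each).

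The genes most like each member over the 15 arrays, by Pearson r among 10359 other genes, are given as a description, since all of them share the arrays and the group structure. For Serping1 they were Arhgdib, Alox5ap and Laptm5, with r from 0.943 down to 0.917. For Serpini1 they were Rab6b, Rab3a and Nrcam, with r from 0.948 to 0.941. Serpinb9 was most like Slc46a1, Myof and Ier3 (r of 0.894 to 0.883), and Serpinh1 most like Dap, Srsf9 and LOC100910973 (0.927 to 0.919). Serpinf1 was most like Ryk, Cpxm2 and Sec61g (0.907 to 0.844), Serpine2 most like Selenof, Atox1 and Itm2b (0.853 to 0.797) and Serpina3n most like Zfyve26, Arrdc1 and Myo9b (0.842 to 0.810).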

How the data were processed

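RNA of pooled posterior cerebral arteries was measured on 15 Affymetrix Rat230A arrays, 3 per group. The deposited values are a linear signal intensity per probe set that the authors made with GCOS and scaled to a global intensity of 500, per the labels and the series' design text. On these files the mean trimmed by 2% at each end was 5000 on every array, 10 times that figure, so a pseudocount of 16 and a minimum of 100 were small on this scale. The GCOS version and probe-level settings are not given in the sources used here. Global scaling ties each signal to the rest of its array, and the number of arrays limits the precision.

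From the deposited intensities log2(signal + 16) was computed, 57 control probe sets were left out, and the 15737 of 15923 probe sets that reached 100 on 3 or more arrays went into the tests. All 10 serpin probe sets met this minimum. Symbols came from the platform annotation, brought up to date by Entrez ID for 12754 probe sets. Of the others than controls, 12783 carried 1 gene, 312 several and 2771 none. Groups were taken from the array titles. In limma 3.58.1 (R 4.3.3), the 5 group means were fitted on all 15 arrays by lmFit, and eBayes used a variance trend (10 residual and 4.83 prior degrees of freedom), with 2-sided tests, 9 comparisons and Benjamini-Hochberg adjustment over all probe sets within each. The script was tested on simulated data. The main probe set of a gene is the brightest over all arrays. All members are named with every probe set. From the lists of other serpins, proteases, receptors and collagens any gene that passed with all 15 arrays is named. Otherwise up to 3 with the smallest p in 3VO against sham are named. Cell type markers are given as counts, and not every collagen gene called without intact replicate 3 is named. The 3 most similar genes by Pearson r are named for each member.

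Alternatives were quantile normalization, centring on array medians, pseudocounts of 1 and 160, a signal minimum of 1000 or none, no variance trend, 1 probe set per gene, the groups of a contrast alone, the array number or the neuron marker mean as a covariate, and each array left out in turn. Counts of the gene lists without intact replicate 3 were added after seeing the data. The members, lists and marker sets were chosen with earlier results of these data known. No genome build is given for the probe sets, so coordinates are those of the RefSeq promoters alone.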

Additional observations from a re-analysis of the deposited data

How the results depend on the processing

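With 3 arrays per group and wide spread, differences of the size seen here mostly lay within the intervals. No serpin probe set passed in any comparison under any alternative other than leaving out an array. Of 849 single values under those alternatives 27 changed direction, and of 1215 in the 15 fits that left out an array 32 did. For the comparisons between times, Serpina3n, Serpinf1 and Serpine2 are not in these counts or in the changes and ranges listed below. Only leaving out intact replicate 3 gave calls, so that the serpin calls ranged from 0 to 1 in 3VO at 24 h against intact, 0 to 2 in 3VO at 3 d, 0 to 6 in sham at 24 h and 0 to 2 in sham at 3 d. No paired analysis was possible because the array titles carry no replicate number shared between groups.

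Over all probe sets, 3VO against sham at 24 h called 8, with 2 to 20 under the other alternatives (2 without the variance trend, 20 for its groups alone and 16 with the neuron covariate) and 1 to 13 with an array left out. At 3 d it called 0, with 0 to 8 (8 with the neuron covariate) and 0 to 1. Against intact arteries 3VO at 24 h called 29 (1 to 30, and 7 to 227 with an array left out), 3VO at 3 d 35 (0 to 36, and 0 to 258), sham at 24 h 0 (0 to 2, and 0 to 818) and sham at 3 d 0 (0, and 0 to 184). The highest counts were those without intact replicate 3, and the lowest for 3VO at 3 d, 0, was that without 3VO at 3 d replicate 2. At an unadjusted p under 0.05 the counts of all probe sets were 745 for 3VO against sham at 3 d, 2364 and 2236 for sham against intact at 24 h and 3 d, 438 for the difference between times, 907 for 3VO and 889 for sham between 3 d and 24 h.

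The neuron covariate turned these log2 differences, whose cause was not tested. In 3VO against sham Serpinf1 was 0.25 and Serpinh1 (1371310_s_at throughout) 0.21 at 24 h, and Serpini1 (1387131_at) -0.26 at 3 d. In the difference between times Serping1 was -0.036 and Serpinh1 -0.017. Against intact arteries, 3VO at 24 h gave Serpinf1 -0.029 and Serpini1 (1387131_at) 0.39, and 3VO at 3 d Serpinf1 -0.32 and Serpine2 -0.040. Sham at 24 h gave Serpina3n -0.11, Serpinf1 -0.27 and Serpinh1 -0.051, and sham at 3 d Serping1 -0.060, Serpinf1 -0.20, Serpinh1 -0.11, Serpine2 -0.026 and Serpini1 (1387131_at) 0.077. Between 3 d and 24 h Serpinh1 after 3VO was -0.076 and Serpini1 (1368256_at) after sham -0.12. With the array number as a covariate, Serpine2 against intact was -0.077 in 3VO at 24 h, -0.051 in 3VO at 3 d and -0.033 in sham at 3 d, Serpini1 (1387131_at) in 3VO at 24 h 0.0030, and Serpinh1 between 3 d and 24 h after 3VO -0.058. In 3VO at 3 d against intact, quantile normalization gave Serpina3n -0.0084, and median centring Serpinf1 -0.046 and Serpine2 -0.014.

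Ranges over the fits that left out an array crossed 0 as follows. In 3VO against sham at 24 h they were -0.067 to 0.30 for Serpina3n and -0.19 to 0.013 for Serpinh1. At 3 d they were -0.27 to 0.020 for Serpina3n, -0.52 to 0.20 for Serpinf1, -0.037 to 0.19 for Serpinh1, -0.20 to 0.20 for Serpine2, -0.29 to 0.41 for Serpini1 (1387131_at) and -0.23 to 0.019 for Serpinb9 (1373672_at). Against intact, 3VO at 24 h gave -0.16 to 0.45 for Serpinf1 and -0.59 to 0.24 for Serpini1 (1387131_at), and 3VO at 3 d -0.30 to 0.46 for Serpinf1 and -0.022 to 0.11 for Serpine2. Sham at 24 h gave -0.085 to 0.47 for Serpina3n and -0.020 to 0.59 for Serpinf1, and sham at 3 d -0.048 to 0.56 for Serpinf1 and -0.16 to 0.24 for Serpine2. Between 3 d and 24 h, Serping1 after 3VO ran from -0.33 to 0.0034 and Serpinh1 from -0.065 to 0.15. After sham Serpinh1 (1369009_at) ran from -0.35 to 0.054, Serpini1 (1368256_at) from -0.13 to 0.54 and Serpinb9 (1373592_at) from -0.20 to 0.045.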
